A study of Mus musculus with 24 samples.

Results

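The RANKL system is described here through its 4 core genes, chosen by symbol: Tnfsf11, which encodes the ligand RANKL, Tnfrsf11b, which encodes the decoy receptor osteoprotegerin, Tnfrsf11a, which encodes the receptor RANK, and Lgr4, which encodes a further receptor that RANKL can bind. All 4 were found among the 54232 gene identifiers in the count tables, and all 4 passed the filter on low counts in every comparison. The study measured RNA in cultures from a mouse model of cherubism, a jaw disease with bone loss. The groups were knock-in mesenchymal, wild-type mesenchymal, knock-in hematopoietic and wild-type hematopoietic cells, with 6 libraries in each of the 4 groups and 24 in all. Knock-in cells came from Sh3bp2KI/KI mice, called CBM in the labels, and their controls from wild-type mice. Every mouse was a C57BL/6 female of 6 to 8 weeks, and every culture was a bone marrow stromal culture grown for 7 days in MEM-alpha with serum. Flow sorting took CD45+ Sca1+ cells as hematopoietic and cells with Sca1 but no CD45 as mesenchymal. Both populations grew in the same kind of mixed culture before the sort, and the labels name no cytokine added to it. No label says that the libraries of a group stand for separate mice or cultures, and the p-values therefore cover no more than the variation among these libraries.

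RANKL is a membrane-bound or shed cytokine made in bone mainly by cells of the stromal and osteoblast lineage and by osteocytes. It binds RANK on macrophage-lineage precursors, where the adaptor TRAF6, NF-kB and the transcription factor NFATc1 drive the osteoclast genes. Osteoprotegerin is a secreted receptor without a membrane anchor that captures RANKL, and LGR4, better known as a receptor of R-spondins in Wnt signalling, can compete with RANK for the ligand.

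Totals per library ranged from 9875390 to 15826711 counts, with a median of 13344447. Replicate libraries of a group differed by more than counting noise in every pair. A tag in the names of the deposited files divides the 24 libraries into 2 sets of 12, with 3 libraries of each group in each. No label says what the sets are. Ptprc, which encodes CD45, averaged 749 CPM in knock-in and 793 CPM in wild-type hematopoietic libraries (CPM, counts scaled to a common library total), and 3.13 and 2.98 CPM in the mesenchymal libraries of the same genotypes. Sh3bp2 averaged 233 ± 36.5 CPM in knock-in and 211.9 ± 25.6 CPM in wild-type hematopoietic libraries (SD, n = 6 each). Its log2 fold change was 0.15 there (edgeR's quasi-likelihood test, adjusted p = 0.448) and 0.04 in mesenchymal cells (edgeR adjusted p = 0.897). In mesenchymal libraries Sh3bp2 was far lower, at 7.58 CPM in knock-in and 7.42 CPM in wild type on average. What the knock-in alters in the Sh3bp2 transcript is not in the labels, and the level of the gene is no check of the genotype.

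The genes lie on separate chromosomes of GRCm38, and no other annotated gene overlaps any of them. Tnfsf11 (ENSMUSG00000022015) spans chr14:78277445-78308043 on the minus strand, and Tnfrsf11b (ENSMUSG00000063727) spans chr15:54250619-54278484 on the minus strand. Tnfrsf11a (ENSMUSG00000026321) spans chr1:105780718-105847981 and Lgr4 (ENSMUSG00000050199) chr2:109917647-110014257, both on the plus strand. The annotation joins the exons of Tnfsf11 to 2236 bases, of Tnfrsf11b to 2818, of Tnfrsf11a to 5985 and of Lgr4 to 5884.

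The promoters of the ligand and of its receptor are shown because these genes were read mostly in opposite populations. Each runs from 250 bases before to 50 bases after the gene's start, is written 5′ to 3′ on the gene's own strand and comes from RefSeq on GRCm38.p6. The Tnfsf11 window is chr14:78307994-78308293 (minus strand) and the Tnfrsf11a window is chr1:105780473-105780772 (plus strand). Capitals mark the motif matches that a search of both strands found.
Tnfsf11: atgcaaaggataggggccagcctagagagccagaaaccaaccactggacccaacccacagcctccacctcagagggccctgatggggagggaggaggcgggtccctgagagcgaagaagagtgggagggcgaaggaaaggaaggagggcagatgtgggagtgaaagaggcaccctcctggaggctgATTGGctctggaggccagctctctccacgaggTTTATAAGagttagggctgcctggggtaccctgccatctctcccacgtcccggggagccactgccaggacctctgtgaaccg
Tnfrsf11a: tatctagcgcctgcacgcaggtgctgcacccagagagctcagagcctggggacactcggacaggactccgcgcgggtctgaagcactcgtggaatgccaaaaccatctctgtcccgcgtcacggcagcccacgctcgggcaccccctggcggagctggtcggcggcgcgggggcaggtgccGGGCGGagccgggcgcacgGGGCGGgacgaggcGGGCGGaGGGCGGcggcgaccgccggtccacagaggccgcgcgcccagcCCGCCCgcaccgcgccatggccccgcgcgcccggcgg

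In the Tnfsf11 window the TATA box letters TATAAN matched on both strands in overlapping positions, the plus match 30 bases before the start, and the CCAAT box letters CCAAT matched on the reverse strand 64 bases before it. The Tnfrsf11a window held 5 matches of the GC box letters GGGCGG, 4 of them on the gene's strand, and neither a TATA box nor a CCAAT box. The TATA box letters were found in 24.8%, the CCAAT box in 37.4% and the GC box in 35.7% of the 32851 mouse promoter windows of this length. Neither window held the RUNX letters ACCACA (16.8% of promoters), the AP-1 letters TGANTCA (7.81%), the PU.1 letters GAGGAAGT (3.2%), the nuclear receptor letters AGGTCA (16.3%) or the NFAT letters GGAAAA (23.4%). A match is a run of letters, not a shown binding site. The Lgr4 window, which was also searched, is not shown, and Tnfrsf11b was not searched.

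RANKL RNA was higher in knock-in than in wild-type cells of both populations, and osteoprotegerin RNA was lower in both. RANK and Lgr4 RNA did not pass the test between genotypes in either population. In mesenchymal cells RANKL stood at 2.01-fold and osteoprotegerin at 0.54-fold of the wild-type level, and in hematopoietic cells at 3.22-fold and 0.331-fold. Across all genes tested, 7.27% passed the same test in mesenchymal cells (3.44% higher and 3.83% lower) and 15.9% in hematopoietic cells (9.01% higher and 6.89% lower), against 2 of the 4 genes in each population, 1 higher and 1 lower.

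The ligand gene Tnfsf11 had 166 to 351 counts in knock-in mesenchymal libraries (median 279), against 61 to 201 in wild-type mesenchymal libraries (median 135). In CPM the knock-in libraries held 14.6, 19.1 and 28.5 and the wild-type libraries 4.75, 9.88 and 13.8 at the lowest, the median and the highest. Every knock-in library lay above every wild-type library on the CPM scale, although the raw counts overlapped. The log2 fold change was 1.01 (SE 0.23, 95% interval 0.51 to 1.502, edgeR adjusted p = 0.0187 by Benjamini-Hochberg over all genes tested). The adjusted p was 0.0506 without the filter on low counts. With 3 libraries a group, the first file-name set alone gave 1.06 (edgeR adjusted p = 0.237) and the second 0.94 (adjusted p = 0.0914).

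In hematopoietic cells Tnfsf11 was a low-count gene. The knock-in libraries had 11 to 60 counts (median 41.5), against 5 to 16 (median 11.5) in the wild-type libraries. In CPM this was 0.849, 2.99 and 5.18 in knock-in and 0.330, 0.959 and 1.24 in wild-type libraries at the lowest, the median and the highest. All knock-in libraries but 1 lay above the whole wild-type range, and the lowest knock-in library fell inside it. The log2 fold change was 1.69 (SE 0.39, 95% interval 0.84 to 2.54, edgeR adjusted p = 0.0107).

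The knock-in spread of hematopoietic Tnfsf11 followed the file-name sets. The knock-in libraries of the first set had 60, 52 and 50 counts against 12, 6 and 12 in wild type, while those of the second set had 33, 22 and 11 counts against 5, 11 and 16. The groups were apart in the first set and overlapped in the second, where the lowest knock-in library lay below the highest wild-type library. Fitted alone, the first set gave a log2 fold change of 2.32 (edgeR adjusted p = 0.0242) and the second 1.03 (adjusted p = 0.441), with 3 libraries a group in each.

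The decoy gene Tnfrsf11b was the most abundant of the 4 in mesenchymal cells. It had 1122 to 2064 counts in knock-in mesenchymal libraries (median 1552.5), against 2625 to 3335 in wild-type ones (median 3043.5). In CPM the knock-in libraries held 91.1, 116 and 137 and the wild-type libraries 179, 220 and 259 at the lowest, the median and the highest. The groups were clearly apart in both counts and CPM. The log2 fold change was -0.89 (SE 0.11, 95% interval -1.13 to -0.65, edgeR adjusted p = 0.000464), or -1.04 in the first and -0.75 in the second set alone (adjusted p = 0.0145 and 0.0455), and its standard error was the smallest among the 4 genes in these cells.

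In hematopoietic cells Tnfrsf11b had 46 to 154 counts in knock-in libraries (median 83), against 123 to 429 in wild-type libraries (median 305). The CPM values were 3.36, 5.85 and 12.7 in knock-in and 12.7, 20.9 and 40.6 in wild-type libraries at the lowest, the median and the highest. The highest knock-in and the lowest wild-type library all but met on the CPM scale, and the raw counts overlapped. The log2 fold change was -1.60 (SE 0.38, 95% interval -2.43 to -0.76, edgeR adjusted p = 0.014). Within the sets it was -1.95 (adjusted p = 0.141) and -1.24 (adjusted p = 0.129), the same direction without passing the test at 3 libraries a group. The adjusted p over all libraries was 0.0567 without the filter on low counts.

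**Figure D1:**
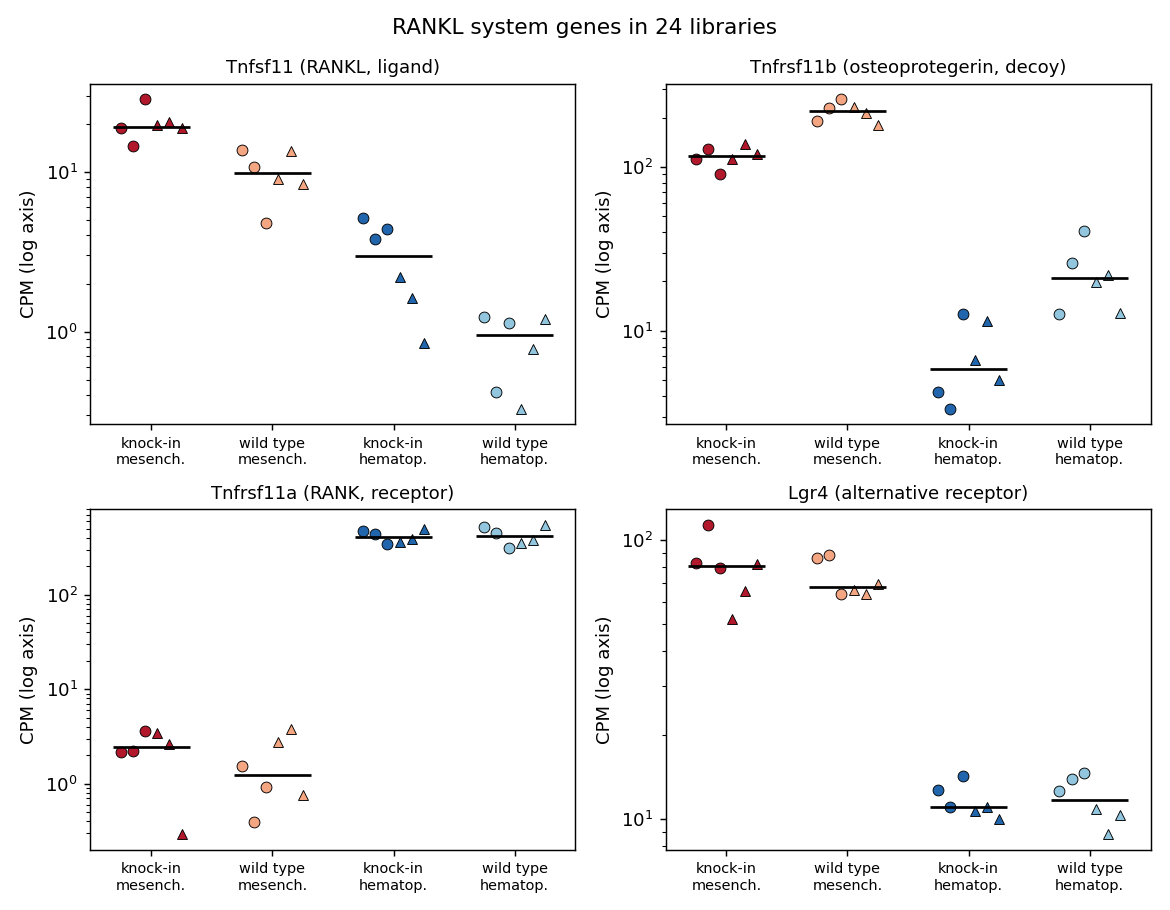
Level of each of the 4 genes in CPM (logarithmic axis) in every library of the 4 groups, with knock-in left of wild type. Circles are libraries of the first file-name set, triangles those of the second, and black lines are medians. Tnfsf11 sat higher and Tnfrsf11b lower in knock-in libraries of both populations, while Tnfrsf11a and Lgr4 overlapped between genotypes.

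The receptor gene Tnfrsf11a belonged to the hematopoietic libraries and overlapped between genotypes there. It had 3990, 5487 and 6404 counts in knock-in and 3274, 5358 and 7360 counts in wild-type hematopoietic libraries at the lowest, the median and the highest. Its mean was 418 ± 61.9 CPM in knock-in and 429 ± 96.7 CPM in wild-type libraries (SD, n = 6 each). The log2 fold change was -0.02 (SE 0.15, 95% interval -0.35 to 0.31, edgeR adjusted p = 0.943).

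In mesenchymal cells Tnfrsf11a was near the floor, with 4 to 53 counts in knock-in (median 33.5) and 5 to 57 in wild-type libraries (median 16.5). The ranges overlapped almost wholly. Its log2 fold change was 0.58 with a 95% interval from -0.63 to 1.79 (edgeR adjusted p = 0.595), too wide to tell a rise from none. The level in mesenchymal libraries was 0.0699%, 0.58% and 0.874% of the hematopoietic mean in knock-in and 0.0909%, 0.287% and 0.889% in wild type at the lowest, the median and the highest. The typical level of 16 leukocyte markers, measured the same way, was 0.152%, 0.52% and 0.848% in knock-in and 0.289%, 0.435% and 0.531% in wild type, so RANK stood in these libraries about where leukocyte RNA stood.

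Lgr4 was even between genotypes in both populations. In mesenchymal cells it had 806 to 1291 counts in knock-in (median 1015.5) and 825 to 1183 in wild-type libraries (median 1025.5), or 79.3 ± 20.6 CPM and 73.2 ± 11.2 CPM (SD, n = 6 each). In hematopoietic cells it had 130 to 164 counts in knock-in (median 150) and 122 to 199 in wild-type libraries (median 147). The log2 fold changes were 0.11 (95% interval -0.16 to 0.38, edgeR adjusted p = 0.666) in mesenchymal and -0.01 (95% interval -0.22 to 0.21, adjusted p = 0.972) in hematopoietic cells.

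**Figure D2:**
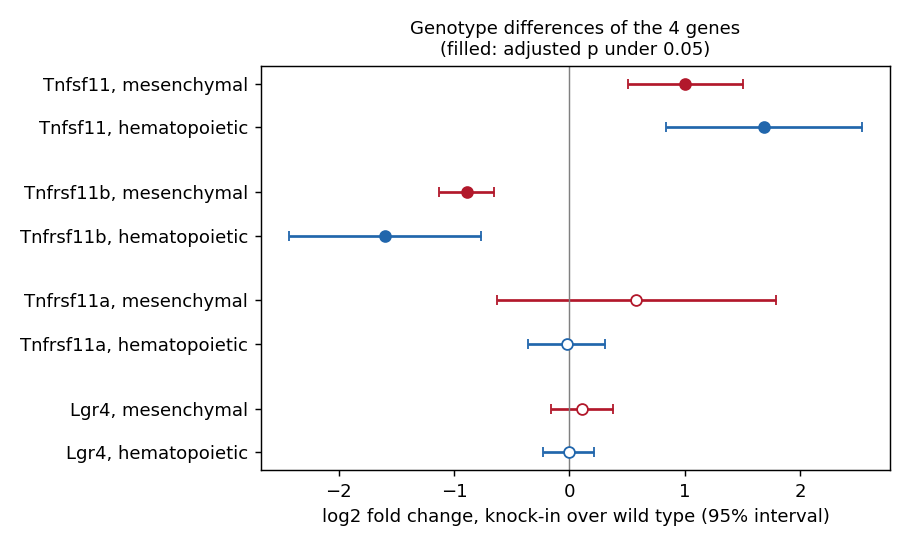
Log2 fold change of knock-in over wild type for the 4 genes in each population, with 95% intervals from edgeR's quasi-likelihood fit and filled symbols where the adjusted p was below 0.05. Tnfsf11 lay above 0 and Tnfrsf11b below 0 in both populations, and the intervals of Tnfrsf11a and Lgr4 held 0 in both.

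The balance of ligand to decoy was set out per library as osteoprotegerin counts for each RANKL count. In mesenchymal cells there were 3.20, 6.21 and 8.78 decoy counts per ligand count in knock-in and 13.9, 21.2 and 54.5 in wild-type libraries at the lowest, the median and the highest. In hematopoietic cells there were 0.817, 2.98 and 7.0 in knock-in and 10.25, 31.97 and 61.7 in wild-type libraries. The genotypes did not overlap in either population, and in 2 knock-in hematopoietic libraries the ligand had more counts than the decoy.

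As a log2 ratio of ligand to decoy (0.5 added to each count), the mean was -2.56 ± 0.48 in knock-in and -4.50 ± 0.69 in wild-type mesenchymal libraries (SD, n = 6 each), 3.86-fold apart. In hematopoietic libraries it was -1.33 ± 1.30 in knock-in and -4.69 ± 1.12 in wild type, 10.3-fold apart. Each difference had an exact two-sided permutation p of 0.00216, the smallest that 6 against 6 libraries can give, or 0.00541 after Benjamini-Hochberg adjustment over 5 ratio comparisons. All 6 knock-in libraries lay above all 6 wild-type libraries in both. Within the sets the hematopoietic log2 difference was 4.39 in the first and 2.34 in the second, and the mesenchymal one 2.19 and 1.71, where 3 against 3 libraries cannot give a p below 0.1. Since both genes are read in the same library, the ratio does not depend on the library's depth scaling. Per kilobase of exon, the median decoy level for each unit of ligand was 4.93 in knock-in and 16.8 in wild-type mesenchymal cells, and 2.36 in knock-in and 25.4 in wild-type hematopoietic cells.

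**Figure D3:**
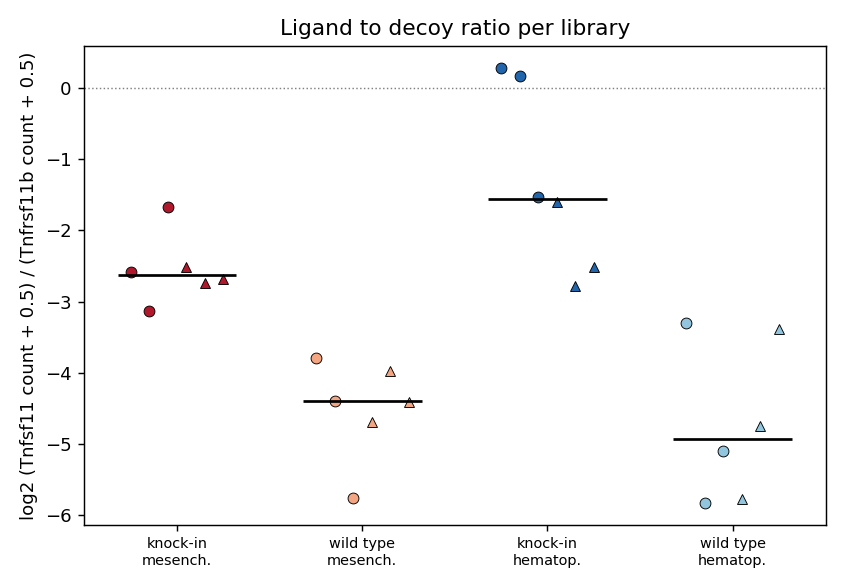
Log2 ratio of Tnfsf11 to Tnfrsf11b counts (0.5 added to each) in every library, with knock-in left of wild type. Circles and triangles are the 2 file-name sets and black lines are medians. Knock-in libraries lay above wild-type libraries in both populations, and within the knock-in hematopoietic group the circles lay above the triangles.

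The population comparison asked where each gene was read. Tnfsf11, Tnfrsf11b and Lgr4 were higher in mesenchymal than in hematopoietic cells, and Tnfrsf11a was lower, in both genotypes and with no overlap between the 6 libraries of each side. Of all genes tested, 73% passed between the populations in knock-in (33.9% higher and 39.1% lower in mesenchymal cells) and 73.5% in wild type (35.4% higher and 38% lower), so passing is common here and only the sizes are read. In knock-in cells the mesenchymal level over the hematopoietic level was 7.03-fold for Tnfsf11, 16.2-fold for Tnfrsf11b and 6.76-fold for Lgr4. In wild-type cells it was 12.2-fold, 9.75-fold and 6.21-fold for the same genes. Tnfrsf11a had log2 fold changes of -7.44 in knock-in (SE 0.39) and -7.96 in wild type (SE 0.40).

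Among the 4 groups, Tnfsf11 was highest in knock-in mesenchymal libraries, then in wild-type mesenchymal, knock-in hematopoietic and wild-type hematopoietic ones. The last 3 of these overlapped with their neighbours in CPM. Tnfrsf11b ran in another order, with wild-type mesenchymal above knock-in mesenchymal, wild-type hematopoietic and knock-in hematopoietic libraries, and no neighbours overlapped, though the lower 2 groups nearly touched. For Tnfrsf11a and Lgr4 the genotypes overlapped within each population and the populations did not.

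Per kilobase of exon the genes can be set against each other. In knock-in mesenchymal cells the median CPM per kilobase was 41.2 for Tnfrsf11b, 13.7 for Lgr4, 8.54 for Tnfsf11 and 0.405 for Tnfrsf11a, and in wild-type mesenchymal cells it was 78.0, 11.6, 4.42 and 0.206 for the same genes. In knock-in hematopoietic cells it was 69.0 for Tnfrsf11a, 2.08 for Tnfrsf11b, 1.88 for Lgr4 and 1.34 for Tnfsf11. In wild-type hematopoietic cells the values in the same order of genes were 69.6, 7.43, 1.99 and 0.429.

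Whether the genotype differences were of unlike size in the 2 populations was tested by the interaction, for which 7.28% of all genes passed (2.92% with a higher and 4.36% with a lower value in mesenchymal cells). None of the 4 did. The mesenchymal minus the hematopoietic log2 fold change was -0.79 for Tnfsf11 (95% interval -1.79 to 0.21, edgeR adjusted p = 0.405) and 0.73 for Tnfrsf11b (95% interval -0.06 to 1.52, adjusted p = 0.311). For the log2 ratio it was -1.42 (permutation p = 0.316 over 853776 arrangements of the genotype labels, adjusted 0.396). The labels were shuffled within each population, which removes the genotype differences themselves. That p therefore cannot decide whether the ratio differences were of equal size. The intervals of Tnfsf11 and Tnfrsf11b leave room for a larger hematopoietic change as well as for equal ones. The ratio itself was 1.23 lower on the log2 scale in knock-in mesenchymal than in knock-in hematopoietic libraries (difference -1.23, exact two-sided permutation p = 0.0519, adjusted 0.0866). It differed by 0.19 between the wild-type populations (exact p = 0.712). These tests take the libraries as separate. Tags in the file names recur in both populations for 5 knock-in and 4 wild-type libraries of each, and no label says what they mark. Across the 5 knock-in tags the mesenchymal minus hematopoietic log2 ratio was below 0 in all 5, from -2.87 to -0.17 with a mean of -1.41 (exact two-sided sign-flip p = 0.0625, the smallest that 5 pairs can give, a comparison added after seeing the data). Across the 4 wild-type tags it was below 0 in 1, with a mean of 0.52 (exact p = 0.375, where 0.125 is the smallest possible).

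In bulk samples, fewer cells of a type and less RNA per cell cannot be told apart, and the hematopoietic libraries carried stromal RNA. The typical level of 17 stromal markers in them, as a share of the mesenchymal level of the same genotype, was 4.84%, 9.75% and 21.9% in knock-in and 5.90%, 8.40% and 17.5% in wild-type libraries at the lowest, the median and the highest. Tnfsf11 stood at 14.95% ± 8.46 of its mesenchymal mean in knock-in and 8.48% ± 4.01 in wild-type hematopoietic libraries (SD, n = 6 each). Tnfrsf11b stood at 6.19% ± 3.35 in knock-in and 10.3% ± 4.78 in wild type. The stromal markers themselves averaged 10.6% ± 5.92 in knock-in and 9.33% ± 4.21 in wild type. The mean shares of ligand and decoy thus lay on either side of the stromal share in knock-in libraries and near it in wild-type ones. By library, the knock-in Tnfsf11 share was far above the stromal share in replicates 1 (25.8% against 9.97%) and 2 (18.9% against 7.09%). It was 10.9% against 9.54% in replicate 4. In replicates 3 (21.8% against 21.9%), 5 (8.13% against 10.2%) and 6 (4.23% against 4.84%) it lay below. The Tnfrsf11b share lay below the stromal share in every knock-in library. With the stromal level of each library as a covariate, the hematopoietic log2 fold change was 1.67 for Tnfsf11 (edgeR adjusted p = 0.0113) and -1.83 for Tnfrsf11b (adjusted p = 0.000223). Without the library of each genotype with the most stromal RNA, a choice made after seeing the data, the values were 1.64 (adjusted p = 0.0469) and -1.64 (adjusted p = 0.0084). Both checks adjust only for how much stromal RNA a library held. In mesenchymal cells these genes themselves differed by genotype, 2.01-fold for Tnfsf11 and 0.54-fold for Tnfrsf11b. Neither check can remove such a difference from carried-over stromal RNA, and its part in the hematopoietic values was not tested.

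**Figure D4:**
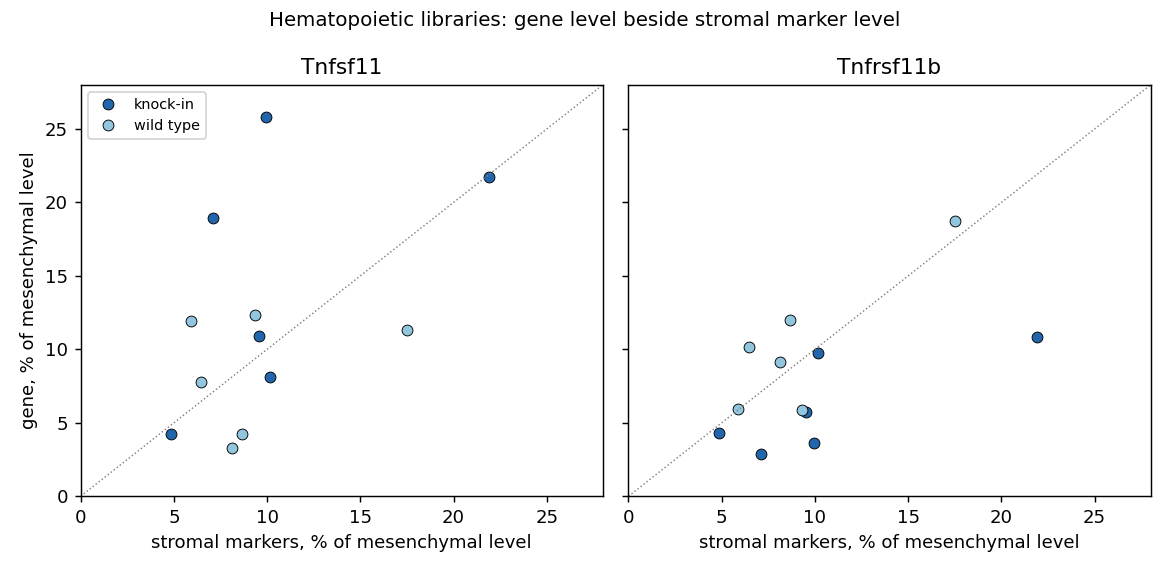
Level of Tnfsf11 (left) and Tnfrsf11b (right) in each hematopoietic library as a percentage of the mesenchymal mean of the same genotype, against the level of 17 stromal markers measured the same way. The dotted line marks equal percentages, with knock-in and wild type in separate colours. Stromal marker levels ran from 4.84% to 21.9% in knock-in and from 5.90% to 17.5% in wild-type libraries.

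T cells can also make RANKL. The summed level of 10 T cell markers in hematopoietic libraries was 26.1, 43.7 and 71.0 CPM in knock-in and 13.7, 17.6 and 27.4 CPM in wild type at the lowest, the median and the highest. Most of this sum was Cd4, with 300 to 779 counts in knock-in and 148 to 314 in wild-type libraries, while the 3 CD3 chain genes, which define T cells, had 7 counts in all 6 knock-in libraries together and 11 in the 6 wild-type ones. Cd3d was at 0 in the knock-in libraries. The part of T cells in the Tnfsf11 difference was not tested.

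Marker sums of other lineages also differed between the genotypes in mesenchymal libraries. The summed level of 10 osteoblast markers was 1928 to 3076 CPM in knock-in and 3263 to 5803 CPM in wild-type mesenchymal libraries, and that of 8 adipocyte markers was 70.1 to 195 CPM in knock-in and 238 to 574 CPM in wild type, with no overlap in either. Both lineages can make osteoprotegerin or RANKL. The 20 stromal markers summed to 36255 to 69041 CPM in knock-in and 31265 to 57599 CPM in wild type, and these ranges overlapped. Bglap2 was at 0 in knock-in, Cidec was at 0 in knock-in, and Lep was at 0 in both genotypes. The part of these lineages in the differences of Tnfsf11 and Tnfrsf11b was not tested.

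Around the receptor, a list of 22 RANK adaptors and NF-kB genes had 8 members higher and 1 lower in knock-in hematopoietic cells (median log2 fold change 0.12, against -0.0048 over all genes tested). Of all genes tested there, 9.01% were higher and 6.89% lower. Nfkbia, which encodes the NF-kB inhibitor that NF-kB itself induces, averaged 65.0 CPM in knock-in and 30.7 CPM in wild type (log2 fold change 1.10, edgeR adjusted p = 0.000124). Tnfaip3, a feedback inhibitor of the pathway, averaged 84.5 CPM in knock-in and 44.5 CPM in wild type. Traf1 had a log2 fold change of 2.34 and Nfkb2, of the noncanonical arm, of 0.78. In mesenchymal cells, where 3.44% of all genes were higher and 3.83% lower, the list stood near the background, with 1 of the 22 higher. This was Traf6, the main RANK adaptor, which rose by 0.37 on the log2 scale (edgeR adjusted p = 0.0217), a call that 3 of the alternatives ended (adjusted p up to 0.0536). Here and for the lists that follow, fits of 1 file-name set alone are left out of such counts.

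Downstream of RANK, 16 of 17 listed osteoclast genes rose in knock-in hematopoietic cells and none fell (median log2 fold change 2.53), beside 9.01% higher over all genes, although Tnfrsf11a itself did not pass. Car2, the carbonic anhydrase that supplies acid for bone resorption, had a log2 fold change of 4.11, Src 2.81, Jdp2 2.42 and the chloride transporter Clcn7 0.79. Src, a kinase that osteoclasts need to form their ruffled border, averaged 128.6 CPM in knock-in and 18.7 CPM in wild type. The remaining gene, Ctsk, named after its value was seen, had a log2 fold change of 2.33 with an adjusted p of 0.108. In mesenchymal libraries 12 of the 17 were tested, and 4 rose, with none lower (median 0.34, against 0.0011 over all genes tested, of which 3.44% were higher). Mmp9 averaged 18.4 CPM in knock-in and 0.624 CPM in wild type there (log2 fold change 4.89, edgeR adjusted p = 0.000135), Atp6v0d2 7.28 CPM and 0.473 CPM, and Acp5 had a log2 fold change of 3.60. The fourth, Src, had 0.43, and 1 alternative ended its call (adjusted p = 0.254). The summed level of the 16 leukocyte markers in the same libraries was 12.8 to 41.7 CPM in knock-in and 16.5 to 35.2 CPM in wild type, and these ranges overlapped. In hematopoietic libraries Mmp9 averaged 910 CPM in knock-in and 123 CPM in wild type. Atp6v0d2 averaged 615 CPM and 116 CPM there, and Acp5 777 CPM and 113 CPM. An even leukocyte level does not account for such a genotype difference in carried-over RNA. The part of hematopoietic RNA in these mesenchymal values was not tested.

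Upstream of the ligand, 20 of 24 listed inducers of RANKL and their receptors were tested in mesenchymal cells, where 3 rose and 3 fell (median log2 fold change 0.21), beside 3.44% higher and 3.83% lower over all genes. Vdr, the vitamin D receptor through which calcitriol induces Tnfsf11, averaged 134 CPM in knock-in and 59.5 CPM in wild type (log2 fold change 1.18, edgeR adjusted p = 0.000277). Ptger4, a prostaglandin E2 receptor, averaged 11.1 CPM in knock-in and 5.77 CPM in wild type (log2 fold change 0.95). Lifr fell by 0.84 and Runx2, the osteoblast transcription factor, fell by 0.59 on the log2 scale. Alternatives ended the call of Lifr in 6 cases (adjusted p up to 0.0935) and of Runx2 in 2 (up to 0.0557). In hematopoietic cells 5 of the 22 tested rose and 4 fell (median 0.01), beside 9.01% higher and 6.89% lower over all genes. Vdr rose there too, at 16.5 CPM in knock-in and 6.59 CPM in wild type (log2 fold change 1.33, edgeR adjusted p = 0.000364), as did Il1r1 (0.96), Cebpb (0.60) and Ptger2 (0.52, a call that 1 alternative ended, with an adjusted p of 0.252). The hematopoietic mean of Vdr was 12.3% of its mesenchymal mean in knock-in and 11.1% in wild type, and that of Il1r1 10.9% and 7.56%, close to the stromal marker share in these libraries.

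Of the 16 listed Wnt genes and other regulators of osteoprotegerin, 14 were tested in mesenchymal cells, and 2 fell with none higher (median log2 fold change -0.10), beside 3.83% lower over all genes. Sfrp1, a secreted Wnt antagonist, averaged 53.1 CPM in knock-in and 201.6 CPM in wild type (log2 fold change -1.90, edgeR adjusted p = 0.00348), and the oestrogen receptor gene Esr1 fell by 0.56 on the log2 scale, a call that 11 alternatives ended (adjusted p up to 0.101). In hematopoietic cells 11 were tested, with 1 higher and 4 lower (median -0.42), beside 9.01% higher and 6.89% lower over all genes. Sfrp1 fell there by 1.66, Ebf2, a stromal transcription factor that activates Tnfrsf11b in mice, fell by 2.21 and Esr1 fell by 0.74 on the log2 scale, while Ctnnb1, which encodes beta-catenin, rose by 0.57. Ebf2 was a low gene there, at 0.53 CPM in knock-in and 2.58 CPM in wild type, or 2.76% and 4.95% of its mesenchymal mean, and Sfrp1 stood at 6.26% in knock-in and 5.34% in wild type. These shares lie below the mean stromal marker share of the hematopoietic libraries, and the part of stromal RNA in them was not tested.

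Of 10 listed R-spondins and partners, 8 were tested in mesenchymal cells and 3 fell with none higher (median log2 fold change -0.40), beside 3.83% lower over all genes. Lgr5, its close relative, averaged 10.2 CPM in knock-in and 32.3 CPM in wild type (log2 fold change -1.66, edgeR adjusted p = 0.0223), Rspo3 had -1.61 and Rspo2 had -0.96. Alternatives ended the call of Rspo2 in 10 cases (adjusted p up to 0.125), of Rspo3 in 4 (up to 0.0704) and of Lgr5 in 1 (0.0759). In hematopoietic cells 1 of 7 tested fell and none rose (median -0.32), beside 6.89% lower over all genes, so the count rests on a single gene. This was Rspo2, at 19.8 CPM in knock-in and 82.0 CPM in wild type (log2 fold change -2.01, edgeR adjusted p = 0.0039). Those levels were 3.22% of its mesenchymal mean in knock-in and 6.51% in wild type, also below the mean stromal marker share.

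Among 6 proteases that can shed RANKL from the membrane, 4 were tested in each population. In hematopoietic cells Mmp14 averaged 659 CPM in knock-in and 250 CPM in wild type (log2 fold change 1.42, edgeR adjusted p = 0.000266) and Adam19 fell by 0.45 on the log2 scale (adjusted p = 0.031). In mesenchymal cells Adam17 fell by 0.30 on the log2 scale (adjusted p = 0.039) and none rose. Over all genes, 9.01% were higher and 6.89% lower in hematopoietic and 3.83% lower in mesenchymal cells. Alternatives ended the call of Adam19 in 8 cases (adjusted p up to 0.0953) and of Adam17 in 11 (up to 0.0938). The list's median log2 fold change was 0.11 in hematopoietic and 0.01 in mesenchymal cells.

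Osteoprotegerin binds other partners besides RANKL, and 3 were listed. Sdc1, a heparan sulfate proteoglycan, averaged 159.7 CPM in knock-in and 24.2 CPM in wild-type hematopoietic cells (log2 fold change 2.78, edgeR adjusted p = 5.51e-05), and Vwf had a log2 fold change of 0.97, so 2 of the 3 tested rose (median 0.97), beside 9.01% over all genes. In mesenchymal cells 1 of 2 tested rose, beside 3.44% over all genes. This was Sdc1, with a log2 fold change of 0.50, and 1 alternative ended that call (adjusted p = 0.186).

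**Figure D5:**
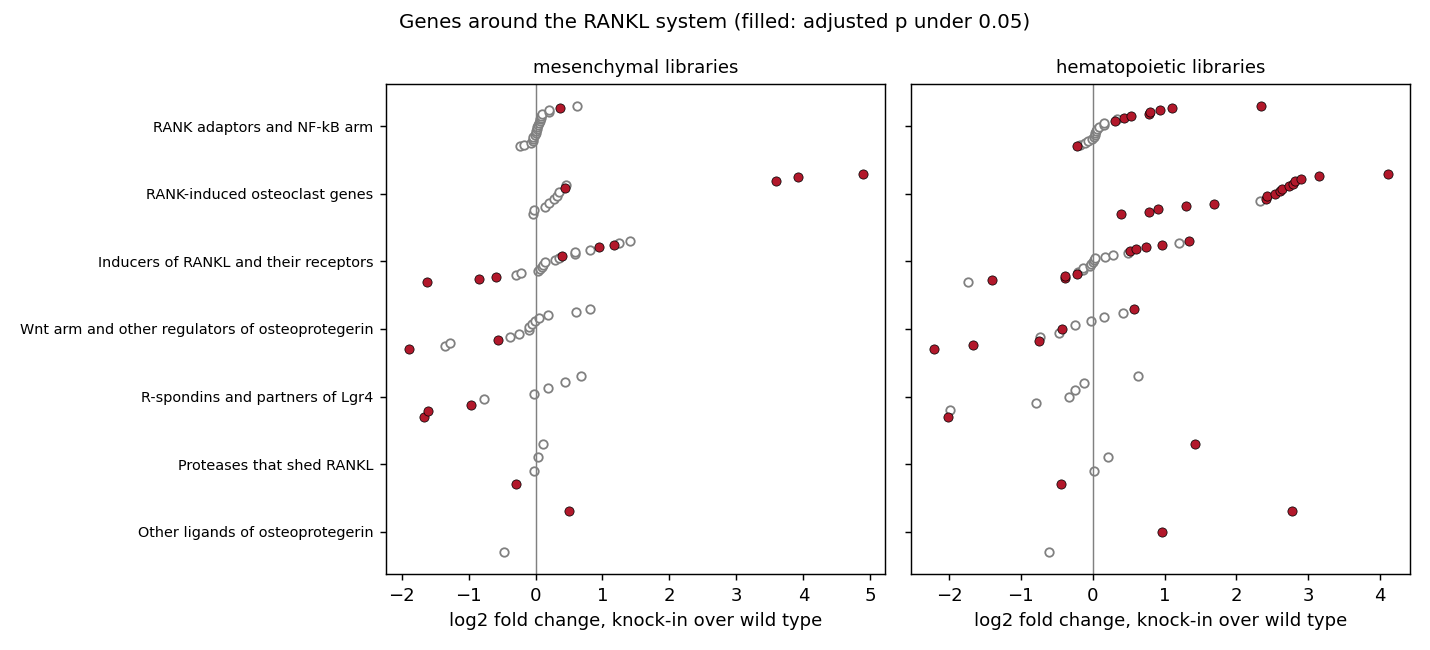
Log2 fold change of knock-in over wild type for every tested gene of the 7 lists around the RANKL system, in each population, with filled symbols where edgeR's adjusted p was below 0.05. Among the osteoclast genes 16 of 17 were filled and above 0 in hematopoietic cells, while the list of inducers held filled symbols on both sides of 0.

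The genes whose levels ran most like those of the 4 were found by Pearson's r of log2 CPM over all 24 libraries, which share the large contrast between populations. For Tnfsf11 they were Vdr (0.97), Il1r1 (0.949) and Rin1 (0.948), for Tnfrsf11b Cand2 (0.983), Dixdc1 (0.977) and Nkd2 (0.976). For Tnfrsf11a they were Myo1f (0.994), Clec12a (0.994) and Aoah (0.993), and for Lgr4 Dcbld2, Frk and Fat4 (0.993 each). Over the 12 libraries of the population with the higher level, which share the contrast between genotypes, the nearest gene was Vill for Tnfsf11 (0.942), Bcar3 for Tnfrsf11b (0.956), Arrb1 for Tnfrsf11a (0.936) and Hmga2 for Lgr4 (0.963). Vdr and Il1r1 were also on the list of RANKL inducers and their receptors.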

How the data were processed

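The labels' protocols describe total RNA depleted of ribosomal RNA, a SMARTer Stranded library kit and paired-end NextSeq reads. The deposited tables give raw whole-number counts per gene from the authors, with no normalisation. The submitters' processing notes name GRCm38 (mm10), HTSeq 0.9.1, FastQC 0.11.7, DESeq2 1.20.0 and MultiQC. Which aligner and which strand setting were used is not given in the sources used here. Symbols, coordinates and exon lengths came from GENCODE M21, which holds 54165 of the 54232 identifiers.

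In R 4.3.3, edgeR 4.0.16 fitted robust quasi-likelihood models on TMM-scaled counts with the file-name set as a term. Genes entered after filterByExpr with a minimum count of 10 and a minimum total of 15. Calls were made at 0.05 after Benjamini-Hochberg adjustment over all genes that entered. Each population's 12 libraries gave its genotype comparison, and all 24 gave the interaction and the population comparisons. Shares of the other population are medians over markers averaging 10 CPM or more. The log2 ratio was tested by exact permutation in Python 3.11.15, with a routine checked against that of scipy 1.17.1 on random numbers. The models were tested on simulated data.

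The genes, lists and tests were chosen with earlier results of these data known. At most 4 called genes were named per list and comparison, by adjusted p, and the 3 genes of highest r for likeness (1 in the text for the 12 libraries). Alternatives covered DESeq2 1.42.0, no filter, other covariates, left-out libraries, each set alone and a replicate block.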

Additional observations from a re-analysis of the deposited data

How the results depend on the processing

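Of 619 alternatives over 30 results on the 4 genes, the ratio and the numbers of genes called, 581 left the result alike. For the 4 genes and the tested ratios this meant the same direction and side of the threshold. For numbers of genes called it meant a number near that of the main fit. Ratios of 1 set alone had no test and counted as alike with the same direction and a shift below 0.957, the pooled SD within groups. Leaving out any 1 library kept all 4 genotype calls: log2 fold changes ran from 1.44 to 1.99 (Tnfsf11) and -1.85 to -1.35 (Tnfrsf11b) in hematopoietic cells and from 0.85 to 1.14 and -0.95 to -0.82 in mesenchymal cells. Without the filter, 2 calls passed the threshold no longer, hematopoietic Tnfrsf11b (-1.61, edgeR adjusted p = 0.0567) and mesenchymal Tnfsf11 (0.998, adjusted p = 0.0506), where more genes were tested. Fitted within file-name set 1 and set 2, hematopoietic Tnfrsf11b had -1.95 and -1.24 and mesenchymal Tnfsf11 1.06 and 0.94, none past the threshold, and hematopoietic Tnfsf11 lost its call in set 2 (1.03). The hematopoietic ratio difference was 4.39 and 2.34. Genes called numbered 672 and 218 in hematopoietic and 391 and 76 in mesenchymal cells, from fewer libraries. DESeq2 called 1645 mesenchymal genes, and leaving out 1 library gave 646 (without knock-in mesenchymal replicate 1) to 1036; the cause was not tested.

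Signs turned for values that had not passed: hematopoietic Tnfrsf11a (0.012 in set 1, 0.037 with the stromal covariate, -0.10 to 0.086 without 1 library), hematopoietic Lgr4 (0.085 in set 2, -0.043 to 0.038 without 1 library), mesenchymal Tnfrsf11a (-0.18 in set 2) and the wild-type population ratio (-0.039 to 0.47 without 1 library). The knock-in population ratio passed 0.05 with a pseudocount of 1 (-1.24, exact p = 0.0411) and with labels permuted within sets (-1.23, exact p = 0.035). It ran from -1.52 to -0.91 without 1 library (exact p = 0.013 to 0.0931). These p-values are not adjusted over the ratio comparisons.

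With a replicate block the log2 fold changes of Tnfsf11 and Tnfrsf11b were 1.74 and -1.64 in hematopoietic and 1.03 and -0.89 in mesenchymal cells, all still called. The block raised the genes called from 2231 to 3315 in hematopoietic and from 1008 to 1258 in mesenchymal cells. Same-numbered libraries of the 2 genotypes correlated at 0.055 to 0.402 (hematopoietic) and 0.028 to 0.304 (mesenchymal). All pairs were positive though not all above 0.1, and the labels give no shared source. Of 761 alternatives over 37 results on listed genes, 658 kept the call and 103 lost it. A gene named in both populations gave a result in each. Low counts limit hematopoietic Tnfsf11 and mesenchymal Tnfrsf11a most.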
